A study of Sus scrofa with 35 samples.

Results

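Immediate-early genes are transcribed within minutes of a stimulus, without waiting for new protein, and their mRNAs are short-lived. The levels of 10 such genes (FOS, FOSB, JUN, JUNB, EGR1, ATF3, MYC, IER2, IER3 and BTG2) were followed in the back muscle of pigs kept at thermoneutrality (TN) or under heat stress (HS). The members were all non-control probes of the array whose gene name in the scanner files is one of these symbols, in upper or lower case. This gave 17 of the 60305 probes, for 8 of the 10 genes, out of 10957 genes named on the array. FOSB and IER2 had none. Of the 17 probes, 14 passed the filter on dim probes, for FOS, EGR1, ATF3, MYC and BTG2. The single probes of JUN, JUNB and IER3 did not pass it.

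The samples were longissimus dorsi of castrated male pigs, 1 sample and 1 one-colour Agilent array per animal, 35 arrays in all. The groups were Creole TN, Creole HS, F1 TN, Large White TN and Large White HS with 6 arrays each, and F1 HS with 5, where F1 is the cross of the Creole and Large White breeds. Per the labels TN was 24 °C and HS was 30 °C. The protocol names 32 °C for 5 days, and the study methods also give 32 °C, with some HS animals slaughtered before 5 full days. Why the labels say 30 °C is not stated. Per the study methods the animals came from litters, the TN animals were killed first, the HS animals were killed after days of heat in other pens, and the muscle was cut out and frozen in liquid nitrogen after slaughter. Slaughter day, age and pen therefore cannot be told apart from temperature. The interval between stunning and freezing is not given per animal in the sources used here.

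FOS and JUN proteins pair to form AP-1, a transcription factor switched on by MAP kinase signalling. FOSB and JUNB are relatives that can take their places in the pair. EGR1 is a zinc finger transcription factor driven by serum response factor, ATF3 is a stress-induced factor of the ATF/CREB family, and MYC drives growth and cell cycle genes together with its partner MAX. BTG2 restrains proliferation, and IER2 and IER3 are further products of early response genes. In skeletal muscle this group is known to rise after contraction, injury and handling of the tissue.

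The probes that carry the results are shown first, because 5 FOS probes and 3 BTG2 probes allow the same transcript to be read more than once. Each is a DNA oligonucleotide of 60 bases, written 5′ to 3′ in the order of the scanner files. The first pair is the FOS probe with the highest mean and a neighbour, with the 57 bases that both share in capitals.
FOS, probe with the highest mean: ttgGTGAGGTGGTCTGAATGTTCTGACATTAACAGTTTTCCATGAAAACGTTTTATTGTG
FOS, overlapping probe: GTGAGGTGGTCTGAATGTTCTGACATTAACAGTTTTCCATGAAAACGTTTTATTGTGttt
FOS, probe without such an overlap: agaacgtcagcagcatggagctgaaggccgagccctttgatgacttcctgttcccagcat
BTG2, probe with the highest mean, with the 47 bases shared with another BTG2 probe in capitals: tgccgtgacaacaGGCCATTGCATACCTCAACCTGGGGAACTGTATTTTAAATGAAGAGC
EGR1, the only probe: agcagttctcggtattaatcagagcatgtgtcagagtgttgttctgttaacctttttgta
ATF3, the only probe: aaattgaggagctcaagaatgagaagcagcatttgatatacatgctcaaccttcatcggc

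The 3 member probes that stayed at background are shown with a probe outside the rule that bears on JUN and another that bears on IER3.
JUN, member probe: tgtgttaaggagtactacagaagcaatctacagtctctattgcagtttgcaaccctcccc
JUN, probe named C-JUN in the files and so outside the rule: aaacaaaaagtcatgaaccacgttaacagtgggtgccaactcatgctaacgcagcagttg
JUNB, member probe: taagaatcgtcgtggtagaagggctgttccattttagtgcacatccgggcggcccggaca
IER3, member probe: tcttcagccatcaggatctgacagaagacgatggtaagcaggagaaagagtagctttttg
Probe of an unnamed transcript, outside the rule: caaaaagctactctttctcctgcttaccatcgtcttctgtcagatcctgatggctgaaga
The JUN member probe was well above background on 1 of 35 arrays and lay between 4.77 and 5.37 on the log2 scale of quantile-normalised intensity, on which all levels below are given. The JUNB probe was well above background on 7 arrays, 4 HS and 3 TN, and lay between 4.96 and 5.84. Whether it reads the strand of the JUNB transcript was not tested. The IER3 probe was not well above background on any array, at 4.72 to 5.24. The last sequence is the reverse complement of the IER3 probe over all 60 bases, and that probe was well above background on 33 of 35 arrays, at 5.60 to 6.40. The IER3 member probe and this probe read opposite strands, and which of them matches the IER3 transcript was not tested. No statement about the level of JUN, JUNB or IER3 is drawn from the member probes. A probe described as FOSB in the files but not named so was not well above background on any of the 35 arrays.

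The tissue was checked against markers. The mean of 10 skeletal muscle markers (actin, myosins, creatine kinase and the like) was 17.99 to 18.36 over the 35 arrays, with 18.21 in HS and 18.28 in TN (means; difference −0.07, permutation p = 0.00062, adjusted over 10 array measures 0.00207), and the share of probes well above background ran from 58.4% to 75.9% over the arrays. Probes of the same member agreed closely. After taking out the group means, Pearson r over the 35 arrays was 0.96 to 1.00 for the 10 pairs of FOS probes, 0.98 to 0.99 for the 3 BTG2 pairs and 0.97 to 0.99 for the 6 MYC pairs (Spearman rho 0.95 or higher in all 19 pairs, permutation p = 1e-05 and adjusted p = 1e-05 in each, the smallest that 100000 resamples can give). Without the 2 arrays farthest out, r was 0.95 or higher in each pair. The values of these genes on single arrays therefore repeated across different 60-base stretches, although all probes of an array share its RNA and labelling. Each gene is described below by the brightest of its kept probes.

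FOS, the best known subunit of AP-1, had the widest range of the group. In Creole TN the lowest, median and highest of the 6 arrays were 9.23, 11.01 and 12.69, and in Creole HS they were 9.61, 11.34 and 12.66. In F1 TN they were 9.40, 10.22 and 13.40, whereas the 5 F1 HS arrays had 9.54, 11.001, 9.86, 10.48 and 9.11. In Large White TN they were 8.38, 10.91 and 12.28, and in Large White HS 9.65, 11.07 and 12.54. All 6 groups overlapped, and the highest and the lowest array were both TN arrays. Group means lay between 9.999 ± 0.75 in F1 HS (SD, n = 5) and 11.11 ± 1.11 in Creole HS (SD, n = 6). Over all arrays FOS spanned 5.02 log2 units, a 32.5-fold range of intensity.

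EGR1 ran from 6.56 to 9.57. In Creole TN the lowest, median and highest arrays were 6.81, 7.40 and 9.25, and in Creole HS 6.90, 7.67 and 8.55. In F1 TN they were 7.51, 7.61 and 9.26, with 4 arrays close together and a pair far above them, and the F1 HS arrays had 6.74, 8.17, 7.22, 7.66 and 6.56. In Large White TN they were 6.92, 8.49 and 9.57, and in Large White HS 7.59, 8.25 and 9.49. The Large White arrays included the highest values at both temperatures, while their ranges overlapped those of the other breeds. Group means lay between 7.27 ± 0.66 in F1 HS (SD, n = 5) and 8.35 ± 0.64 in Large White HS (SD, n = 6), and the range over all arrays was 8.03-fold.

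ATF3 was well above background on 34 of 35 arrays and ran from 5.70 to 9.63. In Creole TN the lowest, median and highest arrays were 6.17, 6.99 and 7.96, and in Creole HS 7.02, 7.76 and 8.74. In F1 TN they were 6.86, 8.07 and 9.63, and the F1 HS arrays had 8.26, 8.68, 6.86, 7.24 and 6.20. In Large White TN they were 5.70, 7.57 and 8.50, and in Large White HS 6.41, 7.77 and 8.22. Every Creole HS array lay above the Creole TN mean of 6.95, but the ranges overlapped. Group means lay between 6.95 ± 0.67 in Creole TN and 8.21 ± 1.19 in F1 TN (SD, n = 6), and the range over all arrays was 15.2-fold.

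MYC had the narrowest spread of the 5 genes, from 8.05 to 10.89. In Creole TN the lowest, median and highest arrays were 8.05, 9.12 and 10.33, and in Creole HS 8.66, 9.15 and 10.06. In F1 TN they were 8.93, 9.42 and 10.89, and the F1 HS arrays had 9.17, 9.51, 8.62, 9.15 and 8.51. In Large White TN they were 8.55, 9.25 and 10.34, and in Large White HS 8.87, 9.57 and 10.32. None of the 5 F1 HS arrays reached the F1 TN mean of 9.61. Group means lay between 8.99 ± 0.42 in F1 HS (SD, n = 5) and 9.61 ± 0.72 in F1 TN (SD, n = 6), and the range over all arrays was 7.18-fold.

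BTG2, the antiproliferative member, ran from 10.68 to 14.44. In Creole TN the lowest, median and highest arrays were 11.11, 12.26 and 13.44, and in Creole HS 11.34, 12.40 and 14.20. In F1 TN they were 12.70, 13.57 and 14.44, the highest median of the 6 groups for this probe, and the F1 HS arrays had 13.68, 13.53, 12.11, 12.79 and 11.42. In Large White TN they were 10.68, 12.74 and 13.95, and in Large White HS 12.32, 12.69 and 13.60. The groups overlapped for BTG2 as for the other genes. Group means lay between 12.37 ± 0.84 in Creole TN and 13.55 ± 0.64 in F1 TN (SD, n = 6), and the range over all arrays was 13.5-fold.

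**Figure D1:**
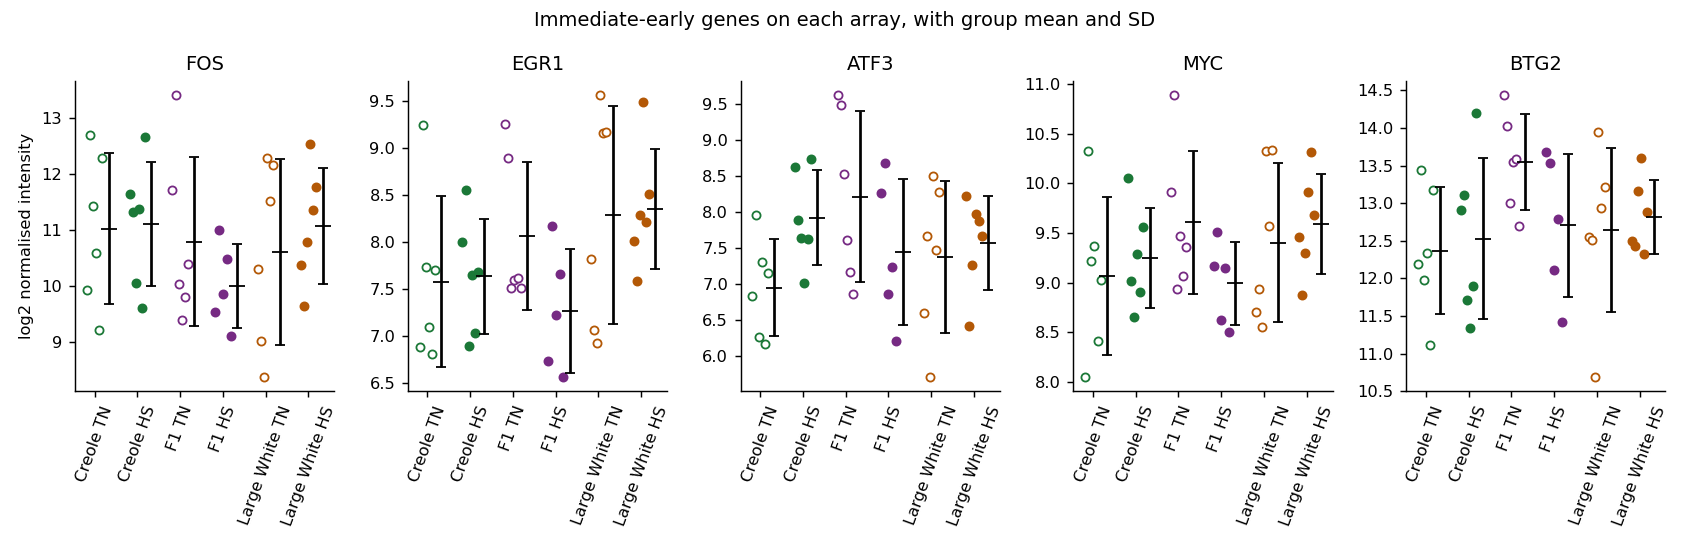
Level of each gene on each array (log2 normalised intensity, 1 panel and scale per gene), with open points for TN and filled points for HS. Black bars give the group mean and SD (n = 6, F1 HS n = 5), and the groups overlap in every panel, as for FOS, which runs from 8.38 to 13.40.

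The first comparison asked whether these genes differed between HS and TN with breed in the model. No difference passed the test. No member probe of the 14 was called at an adjusted p of 0.05 (limma, Benjamini-Hochberg over 41517 probes), 0 had an unadjusted p below 0.05, and 16% of all probes tested were called in this comparison. HS minus TN was −0.06 log2 for FOS (SE 0.41, 95% interval −0.89 to 0.77, limma adjusted p = 0.942, 9 of 17 HS arrays above the TN mean of their breed). EGR1 differed by −0.21 (SE 0.27, interval −0.75 to 0.33, limma adjusted p = 0.641, 8 of 17 above). For ATF3 the difference was 0.16 (SE 0.30, interval −0.45 to 0.78, limma adjusted p = 0.758, 12 of 17 above). MYC gave −0.07 (SE 0.21, interval −0.50 to 0.36, limma adjusted p = 0.869, 7 of 17 above), and BTG2 −0.15 (SE 0.28, interval −0.73 to 0.43, limma adjusted p = 0.768, 7 of 17 above). The intervals are wide: for FOS they leave room for changes between 0.540-fold and 1.71-fold. Of the 14 probes 12 had a negative difference and 2 a positive one, with a median of −0.12 against −0.02 over all probes, but probes of 1 gene repeat each other and the 5 genes vary together.

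Markers of several cell types moved with temperature in these samples. Besides the muscle markers, the mean of 8 connective tissue markers was higher in HS by 0.34 (adjusted permutation p = 0.00155), whereas HS minus TN was −0.36 for the mean of 3 blood cell markers (adjusted permutation p = 0.00155) and −0.18 for that of 6 endothelium markers (adjusted permutation p = 0.019). The single markers of a list did not all move alike. The 3 blood cell markers ran from −1.21 to 0.37, with 1 called lower and 1 positive. Of the 6 endothelium markers 1 was called lower and 1 was positive, at 0.10. All 8 connective tissue markers were positive, and 3 were called higher. The part of these lists in the members' values was not tested. The leukocyte markers, the list with the largest shift, were also used as a covariate. Of 13 measured markers of the 16 listed, 5 were called higher in HS (CSF1R, TYROBP, LAPTM5, AIF1 and FCER1G) and none lower, and their mean per array was 7.74 to 10.23 in TN and 9.04 to 10.65 in HS, a difference of 0.61 (permutation p = 0.00356, adjusted over 10 array measures 0.0089). In bulk muscle, fewer cells of a type and less RNA per cell cannot be told apart. The leukocyte mean also includes CD14, whose deviations from the group means had a mean r of 0.68 with the 5 members. That placed CD14 at rank 22 of 9144 other named genes. The covariate is therefore not independent of the members, and how much this weighs was not tested. With this mean as a covariate the difference turned negative in ATF3 and lay further below 0 in the other 4 genes, at −0.88 for FOS (SE 0.38, limma adjusted p = 0.162), −0.64 for EGR1 (SE 0.27, limma adjusted p = 0.147), −0.41 for ATF3 (SE 0.29, limma adjusted p = 0.429), −0.52 for BTG2 (SE 0.30, limma adjusted p = 0.323) and −0.60 for MYC (SE 0.16, limma adjusted p = 0.02). In that fit 3 of the 4 MYC probes were called lower in HS (limma adjusted p = 0.02, 0.0224 and 0.0451), the other had an adjusted p of 0.0931, and 6.09% of all probes were called. Array brightness, the 75th percentile of the unnormalised signal, was also higher in HS (by 0.18 log2, permutation p = 0.0144, adjusted 0.024). With brightness as the covariate MYC gave −0.41 (SE 0.19, limma adjusted p = 0.213), and 0 member probes were called, against 5.04% of all probes.

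The arrays lay on 5 slides, each with HS and TN arrays. Within a slide, after taking out breed means, HS minus TN ran from −0.89 to 1.74 for FOS, −0.77 to 0.70 for EGR1, −0.59 to 0.90 for ATF3, −0.73 to 0.63 for MYC and −1.29 to 1.40 for BTG2, so no gene had the same sign on all slides. Slide 5 held 1 HS and 2 TN arrays and set the lower end for EGR1 and the upper end for ATF3 and BTG2. On the other 4 slides these ends were −0.63, 0.78 and 0.63, and the signs of each of the 5 genes still differed between slides. With slide as a fixed block FOS gave 0.02 and MYC −0.04, and no member probe was called.

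Within breeds the design asks whether the response to heat depended on the genotype. No member probe was called in any breed, and 0 had an unadjusted p below 0.05, where 1.91% of all probes were called in Creole, 0.00482% in F1 and 0.00482% in Large White. In Creole ATF3 had the largest difference, 0.98 (SE 0.49, interval −0.02 to 1.98, limma adjusted p = 0.243, 6 of 6 HS arrays above the TN mean). It was 0.55 with brightness and 0.20 with the leukocyte mean as covariate. The other 4 genes gave 0.06 to 0.18 in Creole. In Large White the 5 genes gave 0.07 to 0.47, with FOS the largest (SE 0.70, limma adjusted p = 0.768).

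In F1 the differences pointed down for all 14 probes, from −0.96 to −0.32. BTG2 gave −0.84 (SE 0.50, interval −1.87 to 0.18, limma adjusted p = 0.722, 1 of 5 HS arrays above the TN mean) and EGR1 −0.80 (SE 0.47, limma adjusted p = 0.722, 1 of 5 above). FOS gave −0.79 (SE 0.74, limma adjusted p = 0.87, 1 of 5 above), ATF3 −0.76 (SE 0.51, limma adjusted p = 0.781, 2 of 5 above) and MYC −0.61 (SE 0.37, limma adjusted p = 0.732, 0 of 5 above). Each gene had its highest F1 TN value on array number 1 or 2 of that group, and the lowest F1 HS value of all 5 genes was on array number 5. The breed by temperature interaction was called for no member probe (moderated F-test in limma, adjusted p 0.963 to 0.964, lowest unadjusted p 0.0641, for ATF3), and for 0% of all probes, although 1593 of 41517 had an unadjusted p below 0.05. A difference in heat response between breeds was thus not detected for these genes, which does not show that there was none.

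**Figure D2:**
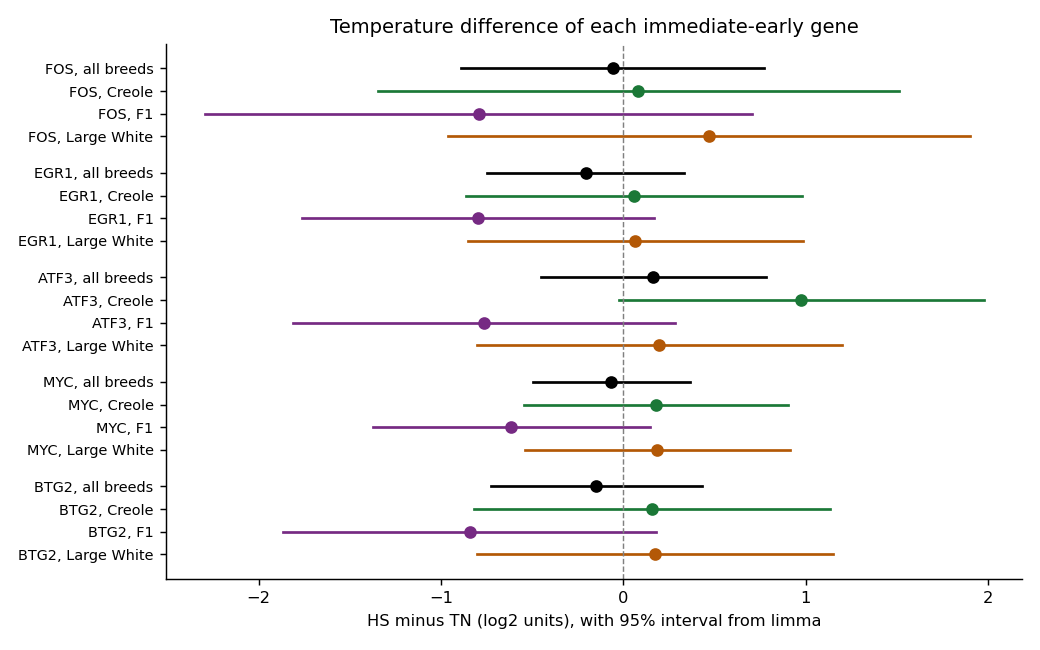
HS minus TN of each gene (log2 units; points are limma estimates, lines their 95% intervals) over all breeds and within each breed. All 20 intervals include 0, and the 5 F1 estimates lie between −0.84 and −0.61.

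Breeds were compared in the same additive model. No member probe was called in any of the 3 contrasts, and those with an unadjusted p below 0.05 were 1 in Creole minus Large White (EGR1), 0 in F1 minus Large White and 1 in F1 minus Creole (a second BTG2 probe, at 0.83). The background was 3.64% of all probes for Creole minus Large White, 0.525% for F1 minus Large White and 0.477% for F1 minus Creole. For EGR1 Creole minus Large White was −0.71 (SE 0.32, interval −1.36 to −0.06, unadjusted p = 0.0333, limma adjusted p = 0.263). The mean of Large White was exceeded by 2 of 12 Creole arrays. It was −0.71 in TN and −0.72 in HS arrays alone. Marker lists leaned the same way. Of the leukocyte markers 2 of 13 were called lower in the Creole animals, of the connective tissue markers 2 of 8 (median −0.34, none positive) and of the endothelium markers 2 of 6 (median −0.22, none positive). With the leukocyte mean as a covariate the EGR1 difference was −0.53. The part of the other lists was not tested. EGR1 in F1 minus Large White was −0.62 (SE 0.33, limma adjusted p = 0.514). BTG2 in F1 minus Creole was 0.71 (SE 0.35, interval −0.00 to 1.42, limma adjusted p = 0.567, 9 of 11 F1 arrays above the Creole mean), 1.18 in TN arrays alone and 0.18 in HS arrays alone. The remaining 12 contrasts of the 5 genes lay between −0.64 and 0.44.

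What these genes shared was the spread between arrays of the same group. With 1 array per animal, differences between animals and between sample preparations cannot be told apart. The SD within groups was 1.28 log2 for FOS, which corresponds to a factor of 2.43, 0.90 for ATF3, 0.88 for BTG2, 0.82 for EGR1 and 0.65 for MYC, whereas the median over all 41517 kept probes was 0.23 and their 99th percentile 0.92. FOS lay at the 99.8th percentile of all kept probes, ATF3 at 98.9, BTG2 at 98.8, EGR1 at 98.5 and MYC at 96.8. The 4 other FOS probes had SDs of 1.04 to 1.27, and all 14 member probes had an SD above 0.63, where the 95th percentile of kept probes was 0.56. The percentile describes these probes and is not a test. With 1 array left out at a time it was 99.7 to 99.8 for FOS and 96.2 to 97.0 for MYC. Over all alternatives in which the percentile was recomputed it was 99.4 to 99.8 for FOS and 96.2 to 97.1 for MYC. The lowest FOS value and the highest MYC value came from other probes of these genes. Few of the alternatives changed the processing itself, and the percentile was not recomputed under most of the processing settings.

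**Figure D3:**
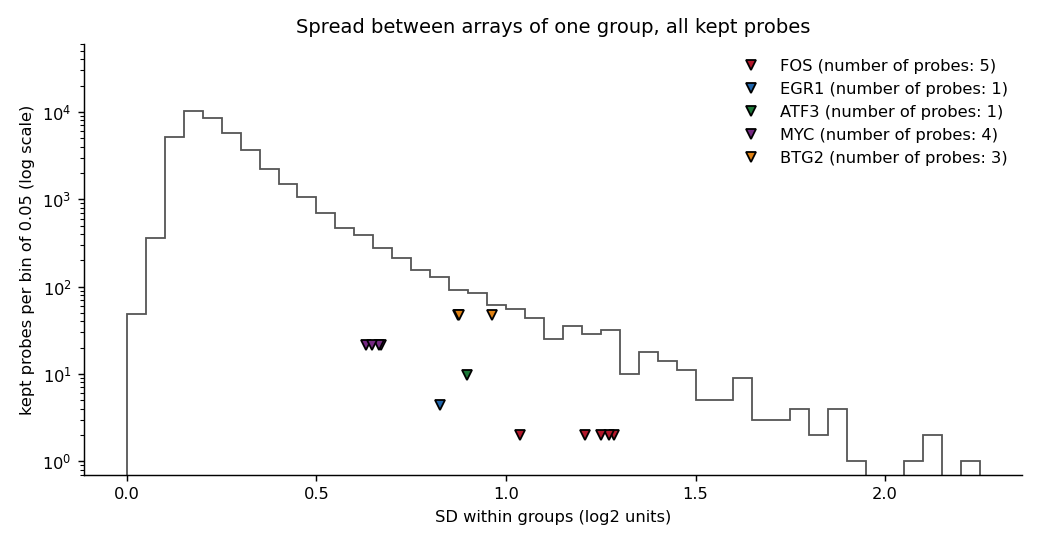
Distribution of the SD within groups over all kept probes (log2 units; probes per bin of 0.05 on a log axis), with a triangle for each member probe at its SD; the height of the triangles only separates the genes. The FOS probes lie furthest right, at 1.04 to 1.28, and all members lie above the median of 0.23.

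Whether this spread differed between HS and TN was tested on the absolute deviations from the group medians. The mean deviation of FOS was 0.73 in HS and 1.18 in TN, a difference of −0.46 (SE 0.23, interval −0.93 to 0.02, unadjusted p = 0.0602, limma adjusted p = 1.00). EGR1 gave 0.45 in HS and 0.73 in TN, a difference of −0.28 (SE 0.17, interval −0.62 to 0.05, limma adjusted p = 1.00), ATF3 −0.19, MYC −0.22 and BTG2 0.06. No member probe was called, and neither was any other probe (0%, with 1325 of 41517 at an unadjusted p below 0.05). On simulated arrays the same test recovered only 3.5% of 200 probes whose SD in HS was made 4 times as large. These were drawn at random from the kept probes, with values independent between probes. Probes with the larger SDs and shared deviations of the members were not simulated. For the probes drawn, a difference in spread was hardly detectable with these numbers of arrays. No rate is known for the members, and the lack of calls says little about their spread.

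The 5 genes rose and fell together from array to array. Deviations from the group means were correlated over the 35 arrays in all 10 pairs. The closest pair was EGR1 and FOS, with r = 0.88 and rho = 0.91, followed by FOS and MYC, with r = 0.84 and rho = 0.84. BTG2 and MYC were the least alike, with r = 0.62 and rho = 0.68. The median r of the 10 pairs was 0.73. Permutation of the arrays within groups (two-sided, 100000 resamples) gave p = 1e-05 to 0.00016 for r and 1e-05 to 0.00025 for rho, where 1e-05 is the smallest that it can give, and Benjamini-Hochberg values over the 10 pairs of at most 0.00016 and 0.00025. Without the 2 arrays farthest from the median of the first gene, r was 0.60 to 0.87. On 11 of the 35 arrays all 5 genes lay above their group means and on 10 all 5 lay below. The highest arrays were Creole TN number 2, F1 TN number 2 and Large White TN number 4, on average 1.34, 1.30 and 1.26 log2 above their groups, and the lowest was Large White TN number 3, at 1.61 below (mean deviation −1.61). The extremes on both sides were thus TN arrays.

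JUN could be read from the probe named C-JUN in the files, which is outside the rule, and from an unnamed spot with the same 60 bases, which was well above background on all 35 arrays (median 14.46, HS minus TN 0.03, SE 0.16, limma adjusted p = 0.92). The probe named C-JUN was well above background on all 35 arrays. The lowest, median and highest arrays were 13.39, 14.04 and 14.95 in Creole TN and 13.33, 14.05 and 15.14 in Creole HS. They were 14.16, 14.51 and 15.10 in F1 TN and 14.09, 14.34 and 14.67 in F1 HS. In Large White TN they were 12.94, 13.94 and 14.36, and in Large White HS 13.93, 14.05 and 14.80. The groups overlapped, with an SD within groups of 0.46 (percentile 91.1 of kept probes). HS minus TN was 0.04 (SE 0.15, limma adjusted p = 0.898). Its deviations followed those of BTG2 most closely, with r = 0.89 and rho = 0.90 (permutation p = 1e-05 for both, adjusted over 5 pairs 1.67e-05). With FOS, its partner in AP-1, r was 0.73 and rho 0.75 (permutation p = 1e-05 for both, adjusted 1.67e-05), and with MYC 0.55 and 0.67 (permutation p = 0.0016 and 3e-05, adjusted 0.00159 and 3e-05). Without the 2 farthest arrays the 5 values of r were 0.53 to 0.84.

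**Figure D4:**
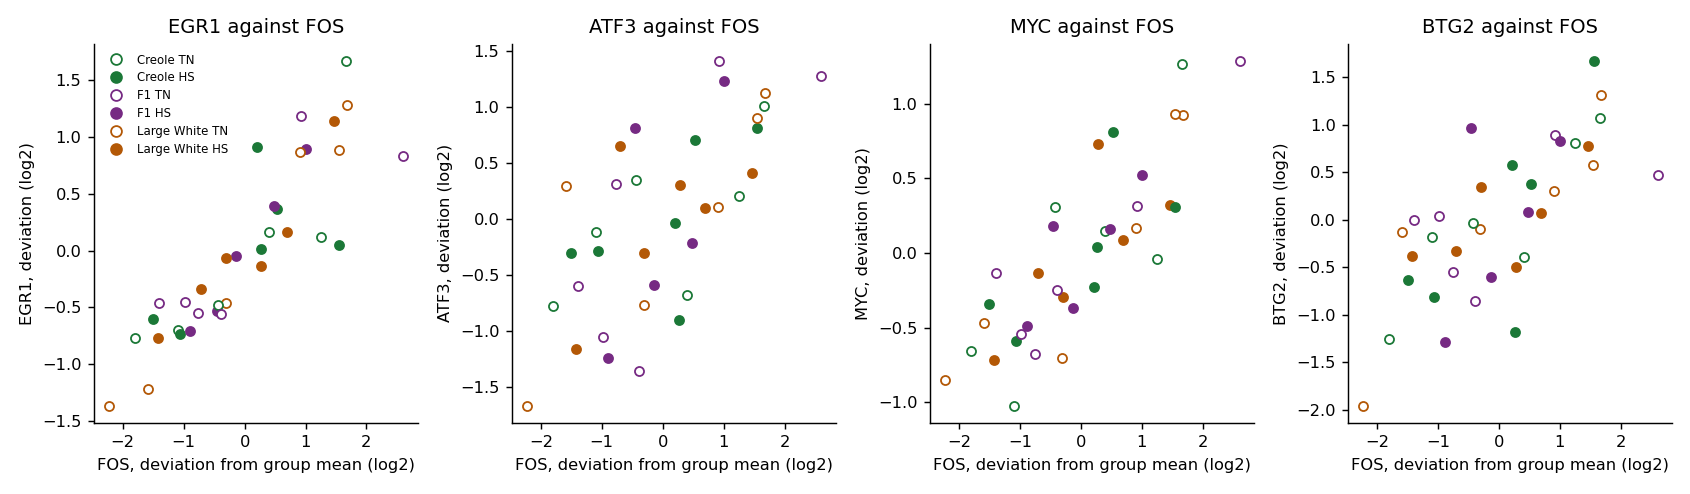
Deviation from the group mean of EGR1, ATF3, MYC and BTG2 against that of FOS (log2 units, 1 point per array, open for TN and filled for HS). In each panel the points climb from lower left to upper right, with r from 0.69 for ATF3 to 0.88 for EGR1.

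The shared deviations were set beside 10 array measures, namely 8 marker lists, brightness and the share of probes well above background (50 correlations, adjusted over all 50). The leukocyte marker mean went with MYC most closely (r = 0.76, rho = 0.68, permutation p = 2e-05 and 0.00011, adjusted 0.001 and 0.0055), then with FOS (r = 0.60, rho = 0.56, permutation p = 0.00096 and 0.0021, adjusted 0.016 and 0.035) and ATF3 (r = 0.52, rho = 0.50, permutation p = 0.00238 and 0.00459, adjusted 0.0297 and 0.0459). Without the 2 arrays farthest out these 3 values of r were 0.70, 0.51 and 0.52. The leukocyte mean includes CD14, which is itself among the genes most like the members (mean r 0.68). For EGR1 r was 0.47 (rho 0.45, adjusted 0.058 and 0.059) and for BTG2 0.35 (rho 0.29, adjusted 0.143 and 0.196), neither past the threshold. Brightness went with MYC (r = 0.58, rho = 0.60, adjusted 0.0102 and 0.0095) and less clearly with FOS (r = 0.46, rho = 0.51, adjusted 0.058 and 0.0459). The mean of the skeletal muscle markers gave −0.32 to 0.04. With the leukocyte mean and brightness both regressed out, an alternative chosen after seeing the data, the 10 pairs of genes still had r of 0.52 to 0.85 (adjusted permutation p at most 0.0019).

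**Figure D5:**
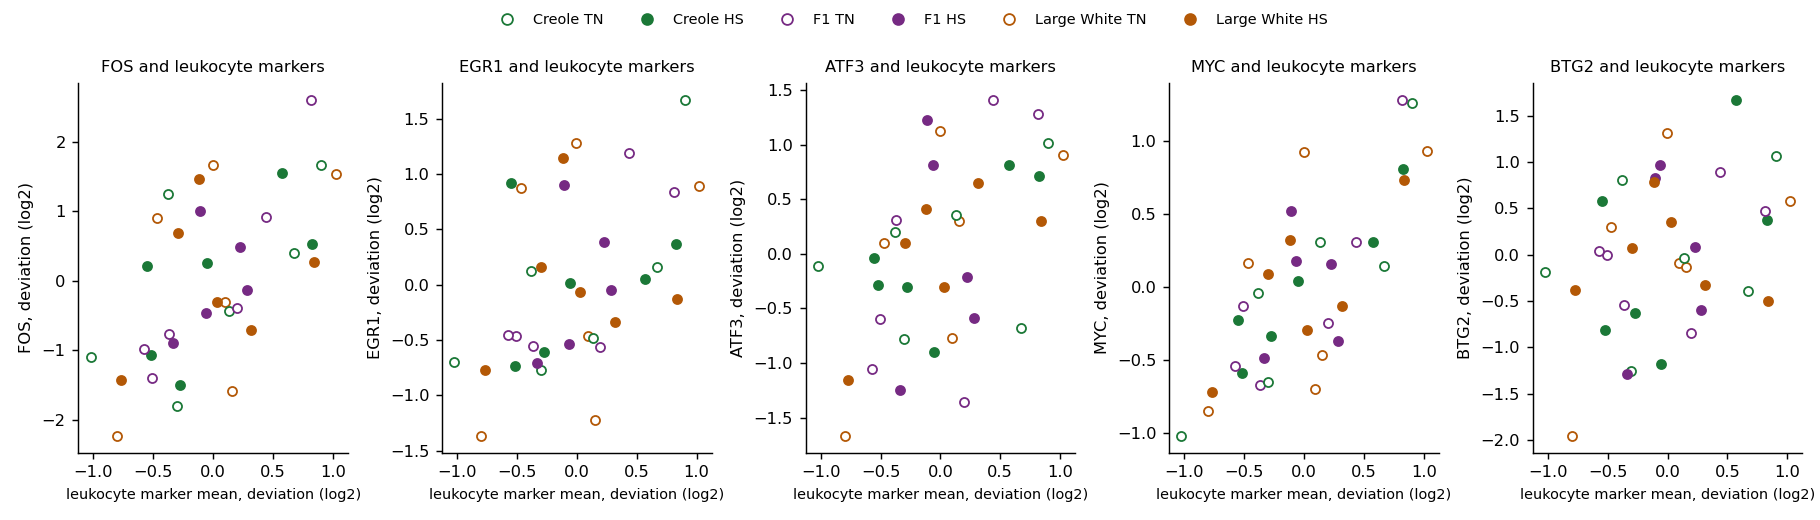
Deviation of each gene from its group mean against that of the leukocyte marker mean (log2 units, 1 point per array, open for TN and filled for HS). MYC follows the leukocyte mean most closely (r = 0.76) and BTG2 least (r = 0.35).

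The genes whose deviations were most like those of the 5 members were taken from 9144 other named genes by their mean r with the 5, over 35 arrays that share RNA and labelling, as a description. PLAU, the urokinase plasminogen activator, led with a mean r of 0.80 (0.66 to 0.92 with single members). CSRNP1, a nuclear protein induced by axin, followed with 0.79, and RRAD, a small GTPase of muscle, with 0.76. The deubiquitinase OTUD1 and the hyaluronan synthase HAS1 both had 0.75. SOCS3, a feedback inhibitor of cytokine signalling, had 0.75, and CYR61, a matrix-associated early response protein, 0.74. NAB2, a corepressor that binds EGR proteins, had 0.73, GFPT2, an enzyme of hexosamine synthesis, 0.73, and the tumour necrosis factor receptor TNFRSF1A 0.72. Of 63 measured genes of the wider early response, 18 (28.6%) had a mean r above 0.5, against 447 of 9144 (4.89%) of the named genes. These 18 included the AP-1 relative FOSL1 (0.66), EGR2 (0.67), KLF4 (0.69), the phosphatase DUSP1 (0.55) and the survival factor MCL1 (0.67). Most of the 63 did not reach 0.5, and their median was 0.25, against −0.05 over the named genes. Some went the other way, the lowest being NR4A1 (−0.59), the kinase MAP2K6 (−0.55) and the AP-1 partner MAFK (−0.50). The value of NR4A1 rests on its brightest probe, which was not called with temperature (limma adjusted p = 0.692). Its 1 other probe was called with temperature, and the mean r of that probe with the members is not given here.

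The same 63 genes, of 82 listed, were then compared between groups. With temperature 9 were called, 3 higher and 6 lower in HS, which is 14.3% of the list against 18.3% of all 9150 named genes. The count was 17 with 75th percentile scaling and 3 with brightness as a covariate. With brightness 5.04% of all probes were called. The share over all genes with 75th percentile scaling is not given here, so these counts say nothing about the lists in particular. None of the 5 measured AP-1 partners (of 8 listed) was called. Of 14 measured inducible transcription factors (of 16), 2 were lower in HS: KLF10, a factor induced by TGF-beta, by −0.46 (SE 0.11, limma adjusted p = 0.00701, 3 of 17 HS arrays above the TN mean of their breed, and 3 of its 4 other probes called) and CEBPB, a leucine zipper factor, by −0.32 (SE 0.09, limma adjusted p = 0.0111, its other probe not called). Of 14 measured feedback regulators (of 23), NFKBIA, the inhibitor of NF-kappaB, was lower by −0.27 (SE 0.09, limma adjusted p = 0.0323, 3 of its 4 other probes called) and BTG1, the closest relative of BTG2, was higher by 0.30 (SE 0.09, limma adjusted p = 0.0182, 15 of 17 above, 4 of its 5 other probes called).

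Of 14 other measured early response genes (of 16), 2 were higher in HS. RGS2, a regulator of G protein signalling, had means of 13.001 in HS and 11.85 in TN, a difference of 1.16 (SE 0.25, limma adjusted p = 0.00255, 16 of 17 HS arrays above the TN mean of their breed, 1 of its 2 other probes called). It fell to 0.35 with the leukocyte mean as a covariate (SE 0.09, limma adjusted p = 0.0172) and to 0.86 with brightness (SE 0.26, limma adjusted p = 0.044). RHOB, a small GTPase, was higher by 0.35 (SE 0.10, limma adjusted p = 0.0188, 6 of its 9 other probes called). Of 16 measured upstream kinases and factors (of 19), 3 were lower, all kinases of the MAP kinase pathways: MAPKAPK2 by −0.25 (SE 0.08, limma adjusted p = 0.0299), MAP2K3 by −0.16 (SE 0.04, limma adjusted p = 0.0101) and MAPK8 by −0.15 (SE 0.05, limma adjusted p = 0.0492, its other probe not called). MAPK8 was called in only 10 of the 35 fits that left out 1 array each. With the leukocyte mean as a covariate, KLF10 and RGS2 were the 2 of these 9 genes still called, and with brightness KLF10, BTG1 and RGS2. Several lost calls kept their size: with the leukocyte mean NFKBIA gave −0.27, MAP2K3 −0.15, MAPK8 −0.16 and BTG1 0.27, and with brightness NFKBIA gave −0.27 and RHOB 0.36. MAPKAPK2 moved most among the lost calls, to −0.09 with the leukocyte mean and −0.13 with brightness. Between Creole and Large White, SOCS3 was lower in Creole, with a difference of −1.69 (SE 0.44, limma adjusted p = 0.0218, the mean of Large White exceeded by 0 of 12 Creole arrays, both other probes called), and MAPK14, the p38 alpha kinase, was higher by 0.35 (SE 0.08, limma adjusted p = 0.00809, none of 3 other probes called). With the leukocyte mean as a covariate the SOCS3 difference was −1.42 (limma adjusted p = 0.0224). SOCS3 and RGS2 also had wide spreads, with SDs within groups of 1.098 and 0.78. No gene of the lists was called in F1 minus Large White or F1 minus Creole, where 0.295% and 0.372% of all named genes were called, so that a count of 0 among 63 says nothing about the lists.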

How the data were processed

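Muscle RNA from 35 pigs was labelled with 1 dye and hybridised to Agilent arrays. Per the file headers the authors scanned the spots with Feature Extraction 10.10.1.1. The deposited scanner files hold intensity on a linear scale, and the deposited value table holds log2 values that the authors made by quantile normalisation and a filter on expressed probes. Per the study methods the authors updated the probe annotation against the Sscrofa11.1 assembly. The build the probes were designed on is not given in the sources used here.

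The median pixel intensity was quantile-normalised, log2 was taken, 105 outlier spots were left out, and no spot was saturated. A probe was kept where 75% or more of the arrays of any group had it well above background (41517 probes). Additive and group-mean models used limma (version 3.58.1, in R 4.3.3), with Benjamini-Hochberg adjustment over all kept probes at 0.05, without the random terms of the study (pen, slaughter day, parents), which the labels do not give. Littermates were treated as independent animals. Correlations of deviations from group means were tested by permutation within groups. Fits were tested on simulated data. Other genes were named through RefSeq accessions or the gene name in the files (22390 of 60305 probes named).

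The members, lists and tests were chosen with earlier results of these data known. Named genes were each member by its brightest kept probe, the called genes of the pathway lists (at most 8 a list) and the 10 genes most like the members. The alternatives are other scalings, background corrections, filters, slide blocks, array weights, covariates, probes and left-out arrays. The number of arrays limits the precision. P-values set each estimate against the spread between these arrays, taken as independent. They do not cover variation shared by litter, pen or slaughter day.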

Additional observations from a re-analysis of the deposited data

Results flagged for a closer look

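Each of the 5 genes was screened in each of the 6 groups for an array far from the others, 30 screens in all, and none passed Dixon's 95% critical value.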

How the results depend on the processing

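Of 2218 refitted differences of the 5 genes, 2217 did not pass an adjusted p of 0.05 and 89 had another sign. The exception was MYC between HS and TN with the leukocyte mean as a covariate (−0.60), where 3 member probes were called against 0 otherwise. Of the 63 genes of the wider early response, 17 were called with 75th percentile scaling and 3 with brightness as a covariate, against 9. Of all probes 5.04% were called with brightness and 16% in the main fit, and the share with 75th percentile scaling is not given here. The causes were not tested.

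Signs over all breeds (HS minus TN) changed for FOS with median scaling (0.0089), slide as a fixed block (0.021) and array weights (0.10), for MYC with median scaling (0.010) and another probe (0.040), and for ATF3 with brightness (−0.21) and leukocytes (−0.41). In Creole the slide block gave −0.027 for EGR1 and −0.20 for FOS, and 2 other FOS probes −0.0070 and −0.034. With brightness BTG2, EGR1, FOS and MYC gave −0.19, −0.23, −0.58 and −0.24 in Creole, and with leukocytes −0.36, −0.59, −1.20 and −0.64. In Large White ATF3, BTG2, EGR1, FOS and MYC gave −0.22, −0.16, −0.21, −0.18 and −0.23 with brightness, and −0.30, −0.15, −0.34, −0.34 and −0.33 with leukocytes. Between breeds ATF3 in Creole minus Large White was 0.029 with the processed signal, 0.042 with brightness, 0.21 with leukocytes and 0.35 in HS arrays alone, and FOS with array weights was −0.00091. In F1 minus Creole, EGR1 and MYC gave −0.10 and −0.064 with leukocytes, and −0.37 and −0.25 in HS arrays alone, where ATF3 gave −0.47. In F1 minus Large White, FOS and MYC gave 0.19 and 0.20 in TN arrays alone, and ATF3 and BTG2 −0.12 and −0.11 in HS arrays alone. The spread difference of BTG2 was −0.028 with another probe.

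Leaving out 1 array at a time, no member probe was called in any fit. Of the wider genes 7 to 12 were called with temperature, and the share over all genes in these fits is not given here. The sign changed within these ranges. HS minus TN was −0.22 to 0.11 for FOS and −0.14 to 0.024 for MYC. In Creole it was −0.18 to 0.40 for BTG2, −0.13 to 0.39 for EGR1, −0.28 to 0.41 for FOS and −0.025 to 0.43 for MYC, and in Large White −0.14 to 0.43 for ATF3, −0.22 to 0.44 for BTG2 and −0.21 to 0.32 for EGR1. Creole minus Large White was −0.19 to 0.076 for ATF3 and −0.010 to 0.40 for FOS, F1 minus Creole −0.059 to 0.24 for EGR1, and the spread difference −0.036 to 0.17 for BTG2. ATF3 in Creole was 0.20 to 1.26 over all alternatives (adjusted p 0.147 to 0.910), EGR1 in Creole minus Large White −0.89 to −0.53 (0.108 to 0.644) and BTG2 in F1 minus Creole 0.18 to 1.18 (0.260 to 0.992). The correlations of the 10 pairs kept an adjusted p of at most 0.0019 in every alternative run.

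No paired analysis was possible because the replicate numbers follow the order of the samples and tie no animals of different groups together. JUN, JUNB and IER3 had no value under any alternative. Their probes did not pass the main filter, and only probes that passed it were followed, also where the filter was lifted. The interval of FOS between HS and TN spans 0.540-fold to 1.71-fold, so smaller changes could not be seen with these arrays.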
